A study of Mus musculus with 9 samples.

Results

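Mature microRNAs of mouse embryonic stem (ES) cells lacking Dgcr8 were measured with 206 probes on 9 two-colour arrays, and 5 of those probes are described here. Their names on the array are miR320, miR126*, miR126, miR340 and miR138-1, written below as miR-320, miR-126*, miR-126, miR-340 and miR-138. They were chosen by name, after their values on the knockout arrays were known, because miR-320, miR-126*, miR-340 and miR-138 lay near or above the wild-type level where most microRNAs had fallen, and miR-126 was added as the other arm of the miR-126* hairpin. The knockout values are therefore given as a description with no test. Ratios were available for homozygous knockout line 1 (2 arrays) and homozygous knockout line 2 (2 arrays), both lacking both copies of Dgcr8, for irradiated embryonic fibroblasts used as feeder cells (2 arrays), and for ES cells lacking 1 copy of Dgcr8 (heterozygous, 3 arrays). On every array the other colour carried RNA of wild-type V6.5 ES cells, and all values below are log2 ratios over that RNA, on the scale set by control RNAs that were added in equal amount. The direction, own RNA over wild-type RNA, is likely but not stated outright: it follows from wild type being called the reference, and every fold, rank and share below takes it so. The ES cells had been grown on the fibroblasts and taken off them before extraction, and the 2 knockout lines were independent. The arrays of a line were duplicate hybridisations, the heterozygous RNA came from 2 preparations not matched to arrays in the labels, and nothing says that the 2 feeder arrays came from separate cultures, so the p-values below reflect array-to-array spread that may be technical. The level of Dgcr8 itself was not measured here.

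Most animal microRNAs are cut from a long primary transcript by the nuclease Drosha with its RNA-binding partner DGCR8, and the hairpin that this leaves is cut by Dicer into a short duplex, of which either strand, the 5p or the 3p arm, can be kept. A few hairpins reach Dicer by another way: mirtrons are released by splicing, and the miR-320 precursor is known to arise as a short capped transcript that needs no DGCR8. MiR-126 and miR-126* are the 3p and 5p arms of a hairpin in Egfl7 and are known from endothelial cells. MiR-138 is known from neurons, and miR-340 comes from a hairpin within Rnf130.

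Mature sequences from the RefSeq table of GRCm38.p6 are shown for the microRNAs that the results turn on, with both arms for miR-340. They are written 5′ to 3′ with the seed, bases 2 to 8, in capitals.
mmu-miR-126a-3p: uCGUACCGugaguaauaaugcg
mmu-miR-340-5p: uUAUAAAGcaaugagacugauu
mmu-miR-340-3p: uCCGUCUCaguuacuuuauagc
mmu-miR-138-5p: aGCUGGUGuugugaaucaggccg
The 4 seeds differ from one another, and none occurs in another of the 1679 mature names of the table. Mature miR-320 and miR-126a-5p are named only. The miR-340 probe name does not say which arm it was made for, and the same mature miR-138-5p is listed for 2 hairpins, Mir138-1 on chromosome 9 and Mir138-2 on chromosome 8, which a probe of the mature form cannot tell apart. The hairpin of miR-126 is shown with the 3p arm, miR-126, in capitals.
Mir126a hairpin: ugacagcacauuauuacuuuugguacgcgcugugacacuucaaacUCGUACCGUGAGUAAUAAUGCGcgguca
It lies on chr2:26591357-26591429 (GRCm38.p6, plus strand) and overlaps Egfl7 and Mir126b. The Mir340 hairpin, with both arms in capitals, lies on chr11:50069702-50069799 (plus strand) and overlaps Rnf130.
Mir340 hairpin: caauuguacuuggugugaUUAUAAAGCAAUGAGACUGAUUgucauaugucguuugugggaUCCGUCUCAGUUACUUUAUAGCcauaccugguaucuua
Mir138-1 (chr9:122682876-122682974, plus strand) overlaps no other annotated gene, and Mir320, on chromosome 14, lies between Polr3d and Bmp1 and overlaps neither.

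Mir340 and Mir138-1 were long hairpins and Mir126a a shorter one, and their base composition differed. Folded with RNAfold 2.7.2, Mir126a (73 bases, 45.2% G and C) had a minimum free energy of -0.427 kcal/mol per base, Mir340 (98 bases, 37.8%) of -0.346 and Mir138-1 (99 bases, 54.5%) of -0.46. Over the 163 hairpins of probed mouse microRNAs with a sequence, the medians were 82 bases, 47.8% and -0.44 kcal/mol per base. Mir340 was thus among the hairpins low in G and C, with 8 of 163 lower, while Mir138-1 had 126 below it and Mir126a 59.

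Of the 206 probes, 195 were matched to a mouse microRNA gene, and 84 to 133 of the 206 had a value on a given array. The median of the mouse probes was between -6.16 and -4.91 on the 4 knockout arrays, 1.34 and 1.16 on the feeder arrays, and between -0.18 and 0.09 on the heterozygous arrays. Of 16 probes for stem cell clusters (miR-290, miR-302 and miR-17), 15 or 16 had a value on each knockout array and none was above 0, with array medians from -8.18 to -7.13. Of the 113 mouse probes with a value in both knockout lines, the median of the line means was -5.58, 90 were reduced more than 10-fold, 11 were above -1 and 4 were above 0. Of the 87 mouse probes tested with limma, 2 were higher in the knockout (2.3%) and 78 lower (89.7%). MiR-320, miR-126* and miR-340 were the highest 3 of the 113 and miR-138 was ranked 9, whereas miR-126, ranked 38, lay far below wild type and is not a retained microRNA on these arrays. Spot intensities were not analysed here, so the signal over background is unknown.

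With ratios taken as own RNA over wild type, miR-320 was the highest mouse probe on every knockout array. Its log2 ratios were 1.38 and 1.30 in knockout line 1 and 1.63 and 1.53 in line 2, against 1.18 and -0.04 in feeders and -0.01, 0.34 and 0.25 in heterozygous cells. The 4 knockout arrays lay above all 5 other arrays. Every knockout array lay above every heterozygous array for 2 of 92 mouse probes (2.17%), and above every feeder array for 1 of 81 (1.23%). MiR-320 was in both counts, and the choice of members had used its knockout values. In linear terms the knockout ratios were 2.59, 2.46, 3.09 and 2.88 times wild type, with a mean of 1.46 ± 0.17 on the log2 scale (SD, n = 2 lines), or 2.74-fold. The mean of line 2 exceeded that of line 1 by 0.24. Duplicate arrays differed by 0.08 in line 1 and 0.10 in line 2, where the median difference over mouse probes was 0.49 and 0.75. Only 4 of 91 and 3 of 97 probes had a smaller difference, so the value of miR-320 was among the most repeatable of either line. In bulk RNA, fewer cells of a type and less RNA per cell cannot be told apart. Relative to the array median, miR-320 stood 6.53 to 7.53 higher on the knockout arrays, where it was first of 91, 126, 110 and 105 mouse probes.

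**Figure D1:**
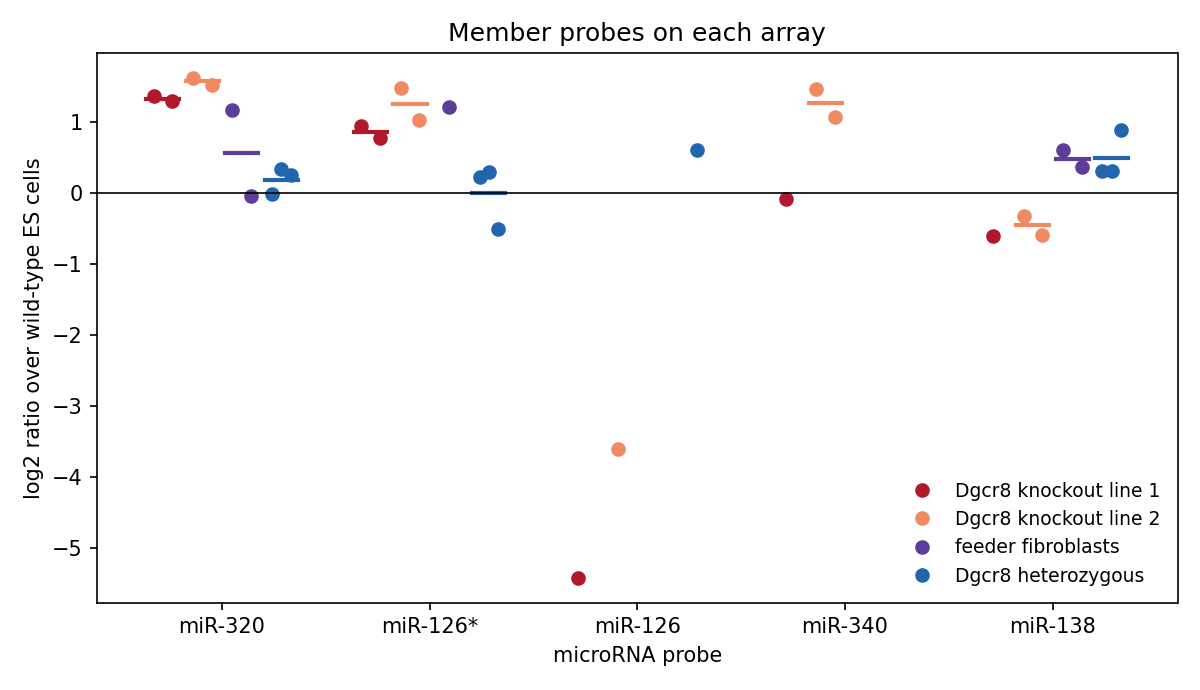
The 5 member probes are on the horizontal axis and the log2 ratio over wild-type ES cells on the vertical axis; each point is 1 array, coloured by group, and a bar is the mean of a group with 2 or 3 arrays. MiR-320 and miR-126* were above 0 on all 4 knockout arrays, miR-138 was below 0 on its 3 knockout arrays and above 0 elsewhere, and miR-126 lay at -5.42 and -3.61 in the knockout.

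MiR-126*, the 5p arm, was the next highest of the 113. It had 0.95 and 0.78 in knockout line 1 and 1.48 and 1.03 in line 2, against 1.22 on the 1 feeder array with a value (replicate 2) and 0.23, 0.30 and -0.50 in heterozygous cells. The knockout arrays lay above the heterozygous arrays without overlap, and the feeder value fell within the range of the knockout. The mean of the lines was 1.06 ± 0.28 (SD, n = 2 lines), a 2.08-fold excess over wild type. It ranked 2 among the mouse probes on 3 knockout arrays and 3 on replicate 2 of line 2. Every knockout array lay above every heterozygous array for 2 of 92 mouse probes with at least 2 values in each group (2.17%), and these were miR-320 and miR-126*, which the choice of members had picked for that contrast.

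MiR-126, the 3p arm of the same hairpin, had a value on 3 of the 9 arrays. It was at -5.42 on replicate 2 of knockout line 1 and at -3.61 on replicate 1 of line 2, against 0.61 on replicate 2 of the heterozygous cells, and no feeder array had a value. Both knockout values were within the bulk of all probes, 0.16 and 1.30 above the median of their array, and corresponded to 0.0234 and 0.082 of the wild-type signal. Both arms could be compared on the same array 3 times. MiR-126* exceeded miR-126 by 6.20 on replicate 2 of line 1 and by 5.09 on replicate 1 of line 2, whereas on replicate 2 of the heterozygous cells it was lower (difference -0.31). The dyes were swapped on the replicate 2 arrays. The gap in the knockout was seen on 1 array of each dye orientation, each from a different line, so dye and line cannot be told apart. Values of both probes are ratios to wild type, so a difference between them compares how far each arm departed from wild type and not which arm was the more abundant.

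Other hairpins with a probe for each arm were set beside it. Among the 13 pairs of mouse probes named for both arms of 1 hairpin, 6 had both values on at least 1 knockout array. The mean difference on those arrays was 5.64 for miR-126* minus miR-126 (2 arrays). It was 1.42 for miR-291-5p minus miR-291-3p, -0.44 for miR-17-5p minus miR-17-3p and -0.32 for miR-292-5p minus miR-292-3p, each on 4 arrays. For miR-324-5p minus miR-324-3p it was 0.55 (3 arrays) and for miR-9-1* minus miR-9-1 0.15 (1 array). In these 5 pairs both arms were below 0 and the mean difference was at most 1.42 in size, so that only miR-126 had arms on either side of wild type. The pairs were set side by side after the values of miR-126 and miR-126* were known, and no test was made of the difference.

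**Figure D2:**
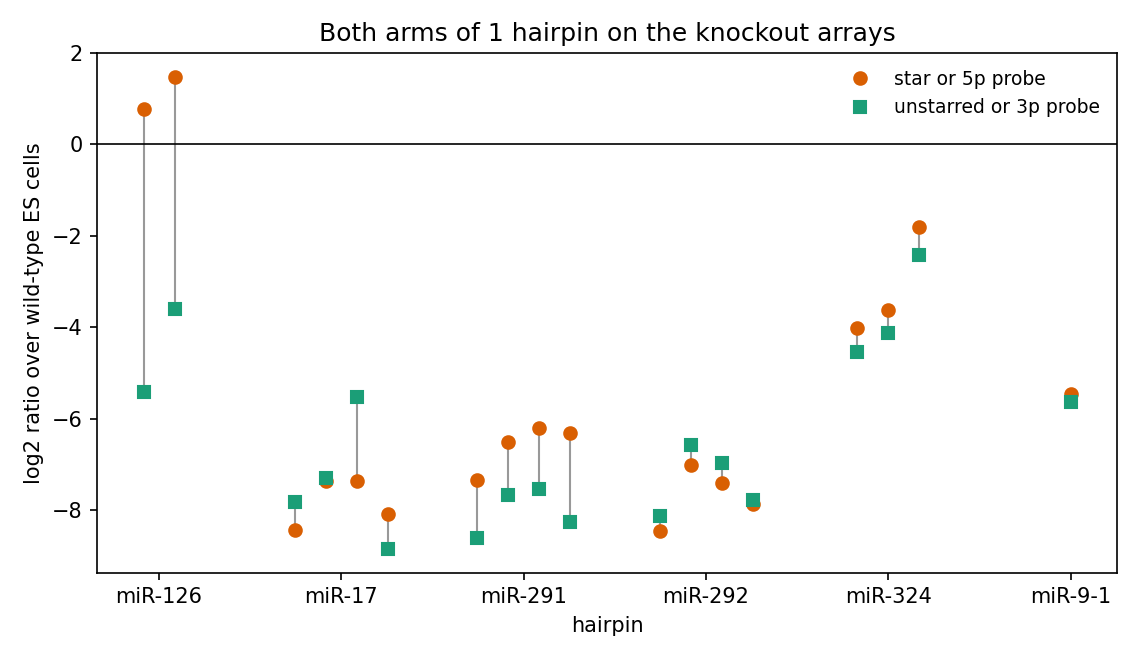
Each vertical line joins the 2 arms of 1 hairpin on 1 knockout array, circles for the star or 5p probe and squares for the unstarred or 3p probe, with the log2 ratio over wild-type ES cells on the vertical axis. The miR-126 arms were 6.20 and 5.09 apart, and those of the 5 other hairpins were on the same side of 0.

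MiR-340 had values on knockout arrays only. It was at -0.08 on replicate 2 of knockout line 1 and at 1.47 and 1.07 in line 2, with no value on replicate 1 of line 1, on either feeder array or on any heterozygous array. Line 2 was above wild type on both arrays and line 1 close to it on its only array, and the mean over lines was 0.60 ± 0.95 (SD, n = 2 lines), a spread wider than the value itself. In line 2 it ranked 3 of 110 and 2 of 105 mouse probes, and in line 1 it ranked 5 of 126. Of the 131 mouse probes with a knockout value, 13 had none on the 5 other arrays. The 12 apart from miR-340 had means between -5.66 and -1.97 over their knockout arrays, among them miR-339 (-5.20 as mean of the lines), miR-219 (-3.90) and miR-369 (-3.57). MiR-340 could not be set against feeders or heterozygous cells.

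MiR-138 was slightly below wild type in the knockout. Its ratios were -0.60 on replicate 2 of knockout line 1 and -0.32 and -0.58 in line 2, against 0.61 and 0.37 in feeders and 0.32, 0.31 and 0.89 in heterozygous cells. All 3 knockout values were below 0 and all 5 others above it. The knockout mean was -0.52 ± 0.10 (SD, n = 2 lines), which is 0.695 of wild type, and it stood 4.59 to 5.36 above the median of the knockout arrays. Every heterozygous array lay above every knockout array for 82 of 92 mouse probes (89.1%), and every feeder array did so for 64 of 81 (79%), so the position of miR-138 below both groups is that of most probes. Every knockout array lay above every feeder array for 1 of 81 probes (1.23%), miR-320.

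**Figure D3:**
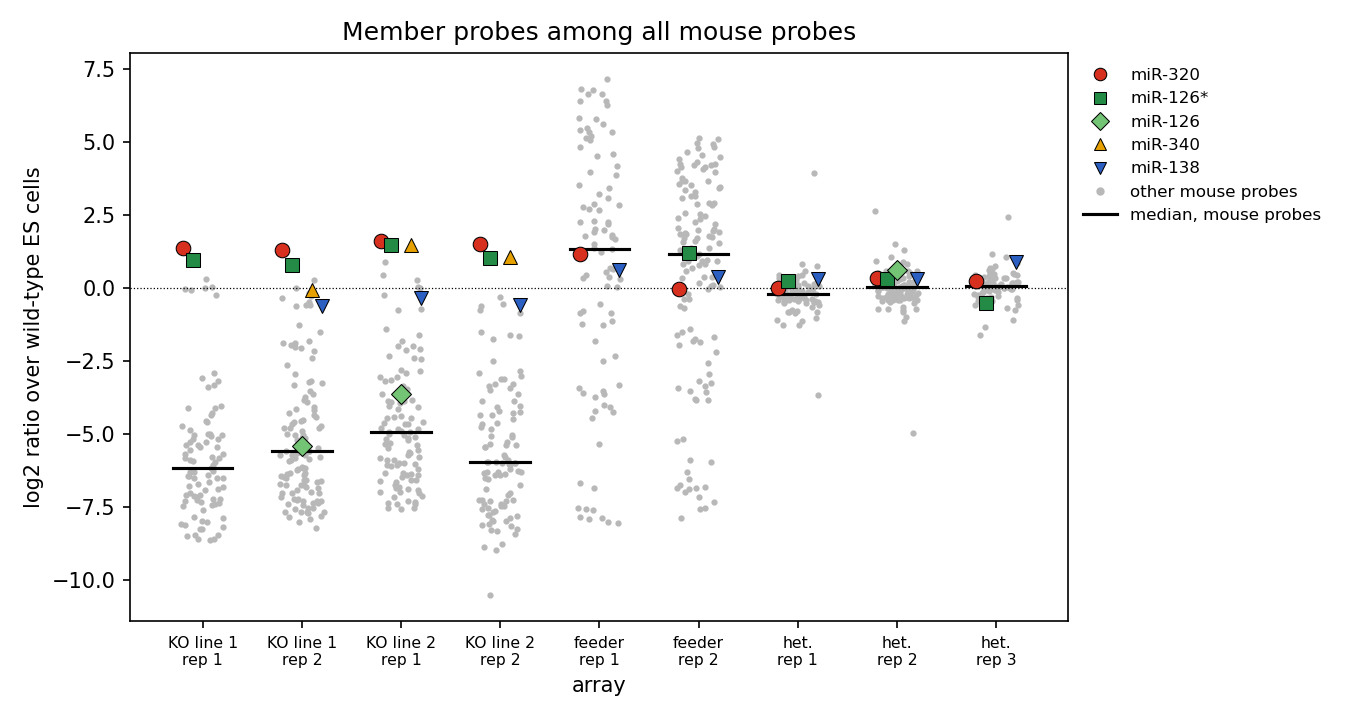
Each grey point is 1 mouse probe on 1 of the 9 arrays, the black bar is the median of the mouse probes, and the coloured symbols are the 5 members, with the log2 ratio over wild-type ES cells on the vertical axis. MiR-320 was the top point on all 4 knockout arrays, and on the feeder and heterozygous arrays the members lay among the other probes.

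The order of the knockout means shows what lay around the members. After miR-320 (1.46), miR-126* (1.06) and miR-340 (0.60) came let-7f (0.48 ± 0.58, SD, n = 2 lines), miR-99a (-0.08 ± 0.11), let-7a (-0.19 ± 0.02), miR-99b (-0.25 ± 0.20) and let-7b (-0.27 ± 0.07). MiR-138 (-0.52 ± 0.10) followed, then let-7e (-0.79 ± 0.53) and miR-211 (-0.80 ± 0.48), and the next probes were miR-140 (-1.06), let-7d (-1.18) and miR-221 (-2.04). The line values of miR-320 (1.34 and 1.58) did not overlap those of miR-126* (0.86 and 1.26), whereas those of miR-340 (-0.08 and 1.27) spanned all of miR-126* and overlapped those of let-7f (0.07 and 0.89). The 2 values of miR-138 (-0.60 and -0.45) lay below those of let-7b (-0.32 and -0.23) and within those of let-7e (-0.41 and -1.16). Let-7 accumulates as stem cells differentiate, and miR-99a and miR-99b belong to a family that shares transcripts with let-7.

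On single arrays few other probes were above wild type. Above 0 were 5 mouse probes on replicate 1 of line 1 and 3 on replicate 2, and 7 on replicate 1 of line 2 and 3 on replicate 2. The 3 on replicate 2 of line 2 were miR-320, miR-340 and miR-126*. On replicate 2 of line 1 the third was miR-125b, at 0.26, and the remaining ones on the replicates 1 were let-7a, let-7b, let-7c, let-7f, miR-99a and miR-99b, at most 0.89. Of the list of 9 microRNAs known to be made without DGCR8 (miR-320, miR-484, miR-668, miR-877, miR-1224 and others), the array held a probe for 1, miR-320.

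Per the series text, feeders were profiled with the question of carry-over into the knockout in view; the ratios themselves compare feeders with wild type and do not test it. In feeders, miR-126* was higher than in wild-type ES cells, by 1.22 with a standard error of 0.38, from 1 array (limma, adjusted p = 0.0258, 95% interval 0.29 to 2.15). With 1 feeder array the standard error, interval and p hold no spread between feeders: they assume that it varies like the knockout line means and heterozygous arrays. That array is the dye-swapped one, so a dye effect does not cancel in this value. MiR-320 (0.57 ± 0.86, SD, n = 2 arrays) and miR-138 (0.49 ± 0.17) missed the threshold (limma, adjusted p = 0.113 and 0.21), with 95% intervals of the mean from -0.12 to 1.26 and from -0.29 to 1.27. Their 2 feeder arrays entered the fit as 1 mean, so these p-values and intervals too hold no spread between feeders. Of the 87 mouse probes that could be tested, 32 were higher in feeders (36.8%) and 32 lower (36.8%), so 1 of the 3 tested members is close to the share among all probes. A probe was tested where both lines, at least 1 feeder array and at least 2 heterozygous arrays had a value, which 3 of the 5 members met (miR-320, miR-126* and miR-138). The call of miR-126* was lost with the 9 arrays as single values (adjusted p = 0.0511), with a dye term (0.0828) and with the replicate number as a block (0.176), and over all alternatives its adjusted p ranged from 0.0163 to 0.899. For miR-320 the arrays disagreed by 1.22, and it was called higher on feeder replicate 1 alone (1.18, adjusted p = 0.00614) and was at -0.04 on feeder replicate 2 alone. These ratios share the wild-type reference RNA with the knockout ratios that chose the members.

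Set against their own feeder values in the knockout, the members differed from one another, on a scale on which the reference cancels. MiR-320 was higher in the knockout than in feeders by 0.89, its knockout signal being 185% of the feeder signal. Against feeder replicate 1 alone the share was 121%, and against feeder replicate 2 alone 282%. MiR-126* was close to its feeder value (difference -0.16, 89.5% of the feeder signal), which came from 1 array and lay within the range of the knockout arrays. MiR-138 was lower (difference -1.01, 49.5%). No test is given, because the knockout values chose the members. The 19 probes for fibroblast microRNAs (among them miR-21, miR-22, miR-143, miR-199a and miR-214) were lower. On the knockout arrays 7 to 13 of them had a value, at most 1 was above 0, their medians lay between -5.35 and -4.50 and their summed linear ratios between 0.248 and 2.47. On the feeder arrays 17 and 19 had a value, all above 0, with medians of 5.20 and 3.35 and sums of 719 and 224, and on the heterozygous arrays 7 to 18 had a value, with medians between -0.28 and 0.29 and sums between 7.29 and 20.8. Of the list, miR-143, miR-199a and miR-214 had no value on any knockout array, which gives no level for them. On the heterozygous arrays miR-199a and miR-214 had a value on 1 array only. Others of the list had knockout values, among them miR-125b (0.26 in line 1 and -4.62 in line 2), miR-145 (-2.01 in line 1) and miR-221 (-2.04). The part of carried-over feeder RNA in the knockout values of the members was not tested.

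**Figure D4:**
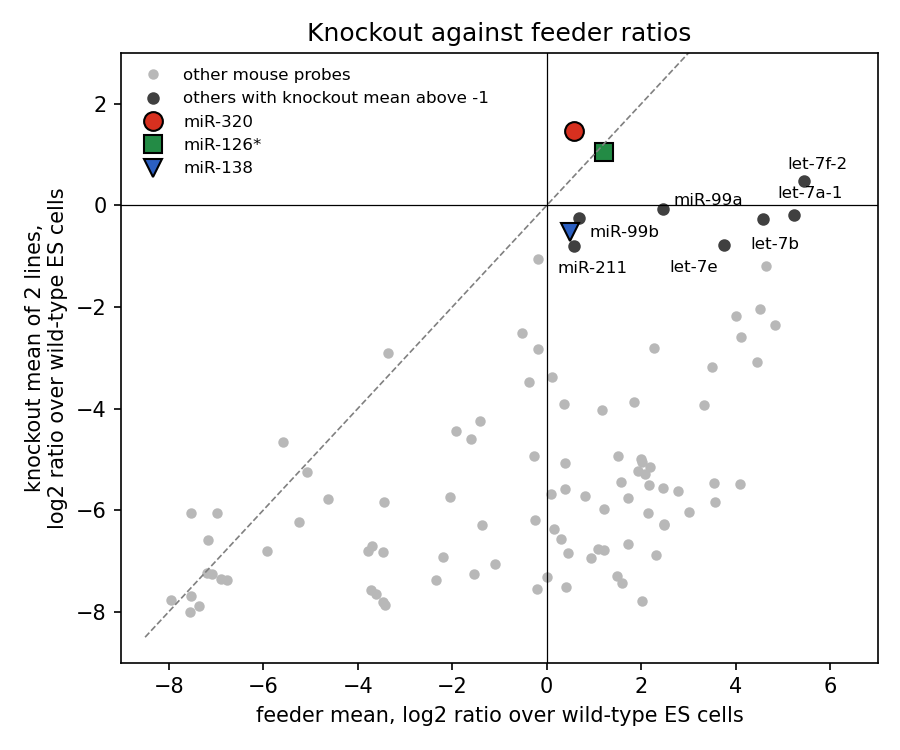
Each point is 1 mouse probe with a value in both knockout lines and in feeders, with the feeder mean on the horizontal and the mean of the knockout lines on the vertical axis, both as log2 ratios over wild-type ES cells; the dashed line marks equal values. MiR-320 lay above the line (1.46 in the knockout and 0.57 in feeders), miR-126* close to it (1.06 and 1.22), and miR-138 below it (-0.52 and 0.49); miR-126 and miR-340 have no feeder value.

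Apart from miR-126*, the markers of other cells that had a value on a knockout array were below wild type there. So were most mouse probes, with 78 of the 87 tested called lower in the knockout (limma, 89.7%). The part of such cells in the RNA was not tested. Of 8 probes for neural microRNAs, the list to which miR-138 itself belongs, 3 to 6 had a value on each knockout array, with medians from -6.02 to -4.46, 3 on each feeder array (medians -3.33 and -3.55), and 3 or 4 on each heterozygous array (medians -0.09 to 0.06). Their summed linear ratios were 0.0587 to 1.05 in the knockout, 1.65 and 1.41 in feeders and 2.93 to 4.55 in heterozygous cells. MiR-138 itself gave the larger part in feeders (1.53 of 1.65 and 1.29 of 1.41) and the smaller part in heterozygous cells. On the 3 knockout arrays where it had a value, it gave 0.66 of 0.76, 0.80 of 1.05 and 0.67 of 0.75. The lowest sum, 0.0587, came from replicate 1 of knockout line 1, where miR-138 had no value. MiR-124a, the leading neuronal microRNA, was at -6.24 in the knockout and at -5.24 in feeders, against -0.52 and 0.49 for miR-138. Of the 4 endothelial probes, miR-126*, miR-126, miR-221 and miR-222, miR-221 was at -2.04 and miR-222 at -3.09 in the knockout and both were above 4.4 in feeders (4.51 and 4.45), and only miR-126* was above 0 on the knockout arrays. The summed linear ratio of the endothelial list was 1.93 to 3.38 on the knockout arrays, of which miR-126* gave the larger part, 69 and 31.9 on the feeder arrays, and 0.707 to 4.90 on the heterozygous arrays. Of 6 blood probes, 1 to 3 had a value on a knockout array, all below 0, with sums of 0.0113 to 0.432, against 0.06 and 5.27 in feeders and 1.70 and 3.88 on the 2 heterozygous arrays with a value.

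The heterozygous cells lack 1 copy of Dgcr8. Their 3 arrays correlated weakly across probes (Pearson r = 0.498 for replicates 1 and 2, 0.289 for 1 and 3, and -0.061 for 2 and 3), against 0.962 for the 2 feeder arrays. Heterozygous ratios centred near 0, with array medians between -0.18 and 0.09. Where few ratios depart from 0, r can be low even if arrays differ little, so it does not measure their agreement in log2 units. None of the 3 tested members was called changed in heterozygous cells, as was none of the 87 probes (limma, 0% higher and 0% lower, with 7 probes at an unadjusted p under 0.05, of which 2 were higher). MiR-138 was at 0.50 ± 0.33 (SD, n = 3 arrays), one of the 2 higher probes (limma, unadjusted p = 0.0343, adjusted p = 0.575, 95% interval 0.05 to 0.96), and was above 0 on 3 of 3 arrays. MiR-320 was at 0.19 ± 0.18 (adjusted p = 0.808, interval -0.20 to 0.59) and miR-126* at 0.01 ± 0.44 (adjusted p = 0.997, interval -0.52 to 0.55). MiR-126, with 1 array, was outside the tested set; when every probe that could be estimated was tested, it was not called (limma, 0.61 with a standard error of 0.76, adjusted p = 0.961).

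Feeders were also set directly against heterozygous cells, which uses no knockout array for the difference and in which the wild-type RNA cancels. MiR-126* was higher in feeders by 1.21 with a standard error of 0.44 (limma, adjusted p = 0.0478, 95% interval 0.14 to 2.28), where 29 of 87 probes were higher (33.3%) and 31 lower (35.6%). This p and interval too hold no spread between feeders, since the feeder side is 1 array, and the call was lost under 13 of 18 alternatives, so the difference is not a firm one. MiR-320 was higher by 0.38 (adjusted p = 0.324, interval -0.42 to 1.17) and miR-138 differed by -0.01 (adjusted p = 0.97, interval -0.92 to 0.89), and neither passed the test. Their 2 feeder arrays entered as 1 mean, so these intervals also hold no spread between feeders. For miR-320 this depended on the feeder array: without feeder replicate 2 it was higher by 0.99 (adjusted p = 0.0235), and without feeder replicate 1 the difference was -0.24. After each array was centred on its median it was called lower in feeders (-0.90, adjusted p = 0.0359), and so was miR-138 (-1.29, adjusted p = 0.0178). Every feeder array lay above every heterozygous array for 38 of 77 probes with at least 2 values in each group (49.4%), and neither miR-320 nor miR-138 was among them. The knockout stood above the heterozygous cells by 1.26 for miR-320 and 1.05 for miR-126* and below them for miR-138 (difference -1.03), values that the choice of members had used.

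Few probes had a pattern like that of the members. Over the 98 mouse probes with a mean in both knockout lines, feeders and heterozygous cells, likeness was taken as the root mean square difference of those 4 means on the log2 scale. For miR-320 the nearest was miR-126* (0.44), followed by miR-99b (1.23) and miR-138 (1.41), so nothing but miR-126* was close. The nearest to miR-126*, after miR-320 (0.44), were miR-99b (0.995) and miR-99a (1.04). For miR-138 they were miR-99b (0.37), miR-140 (0.58) and miR-99a (1.08). MiR-99b had -0.12 and -0.39 in the 2 knockout lines, 0.69 in feeders and -0.01 in heterozygous cells, and miR-140 had -1.51 and -0.61, -0.19 and 0.71. The measure is a description, as the 4 means share the wild-type reference and the knockout means chose the members.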

How the data were processed

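Ratios of mature microRNAs came from 1 deposited table of 206 probes by 9 arrays. Per the labels' protocols, gel-cut small RNA with added control RNAs was labelled with the NCode system; per the series text, the authors normalised ratios on the control RNAs. Scanner, software, background correction and the handling of empty spots: not given in the sources used here. Deposited values were taken as log10 ratios (for replicate 1 of knockout line 1, whose column also held 2 of the 3 spreadsheet error cells, listed as another unit). On replicate 2 of knockout line 1, all 90 low values (ratios under 0.05) equalled, in base 10, a ratio of 4 decimals, against 15 in base 2. The other knockout arrays gave 1 of 76, 2 of 68 and 4 of 75 in base 10, against 14, 13 and 15 in base 2. Feeder arrays gave 0 of 12 and 0 of 17, against 3 and 4, and heterozygous arrays had at most 1 low value. For all these arrays base 10 was assumed without backing from the check, and their ratios, those of feeders included, depend on it. Values were multiplied by 3.3219 to give log2, with no pseudocount or scaling; 886 null cells and the error cells were missing. Centring and scale beyond the control RNAs stay unknown.

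Members, lists and tests were chosen with earlier results of these data known. In R 4.3.3, limma 3.58.1 (random block: statmod 1.5.0) was fitted on 6 values per probe (each of 3 heterozygous arrays, a mean per knockout line, and a feeder mean), ratios against 0, so that wild type's own spread is not counted; a single feeder value is assumed to vary like the other groups. Benjamini-Hochberg adjustment ran over the 87 probes measured in both lines, on at least 1 feeder and at least 2 heterozygous arrays, with a threshold of 0.05. Beside the members, the text names probes with a knockout mean above -1 and the next 3, the 3 nearest patterns per member, pairs of arms, and examples of fixed lists. Probe names were matched to RefSeq genes (195 of 206; GRCm38.p6). The fit was tested on simulated data. The number of arrays limits the precision. Alternatives were single arrays, random, replicate and dye terms, centring, filters, averaged heterozygous arrays, robust moderation and leaving out each array.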

Additional observations from a re-analysis of the deposited data

Results flagged for a closer look

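MiR-126* was higher in feeders than in heterozygous cells by 1.21 on the log2 scale (limma, adjusted p = 0.0478), a tested difference between groups. The feeder side is 1 array, so the p holds no spread between feeders, and 13 of 18 alternatives lost the call. Other members had every array with a value in one group below wild type and every array with a value in another above it. These differences were not tested. MiR-138 was lower in the knockout than in feeders (difference -1.01) and than in heterozygous cells (difference -1.03), with 3 knockout arrays against 2 feeder and 3 heterozygous arrays. MiR-126 was lower in the knockout than in heterozygous cells (difference -5.12), with 2 arrays against 1. MiR-340 was higher in knockout line 2 than in line 1 by 1.34, with 2 arrays against 1, and the line 1 value was close to wild type (-0.08).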

How the results depend on the processing

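The knockout ratios of miR-320 (1.43 to 1.48 with an array left out) and miR-126* (0.95 to 1.17) moved by more than the spread between lines only after centring each array on its median, to 7.10 and 6.70. MiR-138 in the knockout was between -0.59 and -0.46 with an array left out, at -0.28 with the replicate block and at 4.97 after centring. Centring also turned miR-320 in feeders to -0.68 against wild type and -0.90 against heterozygous cells, and miR-138 in feeders to -0.76 and -1.29, both microRNAs then being called lower against heterozygous cells (adjusted p = 0.0359 and 0.0178). With an array left out, miR-320 in feeders ranged from -0.0419 to 1.18, and from -0.24 to 0.99 against heterozygous cells, the extremes being those without feeder replicate 1 and without feeder replicate 2. MiR-126* in feeders was 1.22 in each leave-out fit, and missed the threshold with single arrays (1.22), a dye term (1.23), the replicate block (1.06) and centring (0.0641). Against heterozygous cells it ranged from 0.95 to 1.35 with an array left out, missing the threshold in 5 of 8 such fits (without replicate 1 of knockout line 1, replicate 2 of line 2, feeder replicate 1, and heterozygous replicate 1 or 3), and missed the threshold with single arrays, a random block or no filter (1.21 each), a dye term (1.22), the replicate block (1.05), centring (0.0309), and heterozygous replicates 1 and 2 (1.34) or 1 and 3 (1.14) averaged. Without feeder replicate 2 it could not be tested. MiR-126* in heterozygous cells lay between -0.13 and 0.27 with an array left out (-0.10 without heterozygous replicate 1, -0.13 without replicate 2) and at -0.12 with replicates 1 and 2 averaged. MiR-138 in feeders against heterozygous cells ranged from -0.13 to 0.18 with an array left out (0.11 without feeder replicate 2, 0.18 without heterozygous replicate 3), and was 0.0304 with a dye term, 0.18 with the replicate block, and 0.0344 and 0.0325 with heterozygous replicates 1 and 3, and 2 and 3, averaged. Its feeder ratio ranged from 0.37 to 0.61 and its heterozygous ratio from 0.31 to 0.60, and that of miR-320 in heterozygous cells from 0.12 to 0.30.

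Counts over all probes moved as follows. Higher in the knockout were 2, against 1 with the replicate block, 1 with values on all 9 arrays, 25 after centring, and 1 to 2 with an array left out; lower were 78, against 33 after centring, 119 with no filter, and 63 to 78. Higher in feeders were 32, against 12 after centring, 69 with no filter, 19 with values on all 9 arrays, and 20 to 37; against heterozygous cells 29, and 10, 47, 19, and 19 to 35 under the same settings. Lower in heterozygous cells were 0, and 0 to 1 with an array left out (1 without replicate 2 of knockout line 1). The causes were not tested. Same-numbered arrays of different groups deviated together with r from 0.051 to 0.415, over 0.1 in 8 of 12 comparisons, a hint from the data only. The 12 are not independent: between groups of 2 arrays, replicates 1 and 2 mirror each other and give the same r. Of the 9 arrays, 8 correlated best with their own number. The other, heterozygous replicate 3, has no same-numbered array in another group and could not be judged. The 8 are not separate observations either, as the same mirroring ties together the arrays of a group of 2. Replicate 2 is also the dye-swapped array.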
